A study of Caenorhabditis elegans with 53 samples.

Results

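Repeat elements and transposons are described here in adult Caenorhabditis elegans that lack the Argonaute RDE-1 and in wild-type adults. They were taken from the table of RNA levels as the rows whose identifier is an element name rather than a WormBase gene ID, with a mean of at least 10 normalized counts over the 6 libraries. Of 30122 rows in the table, 29970 were genes and the rest repeat elements, of which 90 reached the mean of 10 and are the members and 62 did not. Of the 62, 57 were detected below that mean and 5 were at 0 in all 6 libraries. Just inside the limit were LINE2C (mean 10.7), LINE2H (11.1) and HAT3 (12.96), and just outside it Vingi_2 (9.78), PALNN1 (9.16) and CER9_LTR (9.07). The rule also asked for 22G-RNA rows that carry an element's name, and there were 0 among the 84804 22G-RNA rows of the 8 small RNA tables. A different small RNA class, the 23H-RNAs, did carry element names and is described after the RNA levels.

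The groups were as follows. RNA levels came from 3 libraries of rde-1(ram40) animals and 3 of wild type (N2), both total RNA depleted of rRNA with a strand-marking kit. Whether counting used the strand is not given in the sources used here, so sense and antisense RNA of an element cannot be told apart. Small RNA libraries of 16 to 30 nt came from rde-1(ne219) adults (strain WM27, 3 libraries), from wild-type mixed-stage embryos (2) and from wild-type N2 adults (3). Animals with GFP and FLAG tags on the rde-1 gene itself (allele cmp133) gave RDE-1 co-immunoprecipitates (co-IPs) and inputs without RNAi (2 each) and on nrfl-1 RNAi (3 each), besides lysates from dcr-1 RNAi and from L4440 (2 each). L4440 is the empty feeding vector of worm RNAi. RNA of the rde-1(ne219), wild-type and no-RNAi RDE-1 libraries is labelled as treated with a pyrophosphohydrolase, which makes triphosphorylated small RNAs such as 22G-RNAs ligatable. Tagged alg-1 (ap423) and alg-2 (tor139) animals gave co-IPs and inputs on rde-1 RNAi and L4440 (2 each), and ALG-1 also on nrfl-1 RNAi (3 each). Adults were gravid hermaphrodites grown for 72 to 75 hours from synchronized larvae at 20 °C, and whole animals were used. The alleles differ between the assays: RNA levels are of ram40 and small RNAs of ne219. The 8 small RNA tables hold 47 columns but 44 distinct libraries, since the adult columns of the stage table equal the wild-type columns in 25921 of 25921 shared rows. Nothing in the labels says that replicates came from separate cultures, so p-values measure the spread between these libraries, which may be technical.

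Transposons are genomic elements that copy or move themselves. DNA transposons are excised and reinserted by a transposase, LTR retrotransposons and LINEs copy through an RNA, SINEs are short tRNA-derived elements that borrow LINE enzymes, and Helitrons replicate by a rolling circle. In the worm germline they are held silent by piRNAs and by 22G-RNAs of the mutator pathway, and mut-7 or rde-2 mutants mobilise Tc1. RDE-1 is the Argonaute that binds the primary siRNAs cut by Dicer from double-stranded RNA, and rde-1 mutants are known for failing in RNAi rather than for mobilising transposons. The study's tables list a further class as 23H-RNAs, single sequences of 21 to 24 nt here.

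Repeat RNA was a small part of the libraries and sat in few elements. All repeat rows together took 0.382% to 0.397% of the normalized counts in rde-1(ram40) libraries and 0.388% to 0.492% in wild type. In reads this was 32622 to 42156 per rde-1(ram40) library and 27563 to 41759 per wild-type library, counted from the repeat rows, whose values were all whole multiples of 1 step per library (100% of values above 0, within 0.01 read). CELE45, a tRNA-derived SINE, held 35.8% of the summed level of the 90 members, CER1 17.5% and CER16_2_I 7.60%, and the 10 highest members together 79.9%. Only 6 members had a mean of at least 1000 normalized counts, 28 lay between 100 and 1000 and 56 between 10 and 100, with a median of 70.3. These levels are not divided by length, since the files give no element lengths, so they rank elements by the RNA counted and not by transcripts.

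The label check came first. The rde-1 gene had 1.07, 0.864 and 0.834 normalized counts in rde-1(ram40) libraries, against 1506, 1619 and 1389 in wild type (limma, adjusted p = 4.63e-11). All 3 mutant libraries were thus at about the value of 1 read.

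None of the 10 members with most RNA passed the test between the genotypes. CELE45 had 11465, 10892 and 13640 normalized counts in rde-1(ram40), against 9566, 13260 and 17423 in wild type. The mutant libraries lay inside the wild-type range (log2 fold change -0.13, SE 0.19, limma adjusted p = 0.930). CER1, a Gypsy-type LTR retrotransposon known for virus-like particles in the germline, had 6788, 6007 and 5172 normalized counts in rde-1(ram40), against 6970, 7159 and 5105 in wild type. Its long terminal repeat is listed apart as LTRCER1, with 441.2, 312 and 311 in rde-1(ram40) and 404, 408 and 331 in wild type. Both rows overlapped between the groups, and since they belong to 1 element the authors' read assignment could have moved reads between them.

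CER16_2_I, the internal part of another LTR element, had 2688, 2192 and 3040 normalized counts in rde-1(ram40), against 3171, 2045 and 3057 in wild type. Chapaev_1, of the Chapaev group of DNA transposons, had 1755, 1638 and 1690.0 in rde-1(ram40), against 1690.1, 1706 and 1501 in wild type. CEREP1A, listed as a DNA transposon, was the steadiest of the high members, with 1051, 1064 and 1075 in rde-1(ram40) and 1048, 1113 and 1038 in wild type. None of these 3 separated the groups. CER10_I was the least steady: 498, 777 and 1170 in rde-1(ram40), against 475, 663 and 882 in wild type. Its highest rde-1(ram40) library was 2.35 times the lowest, while the median member differed 1.38-fold between the highest and lowest rde-1(ram40) library and 1.39-fold between wild-type libraries.

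**Figure D1:**
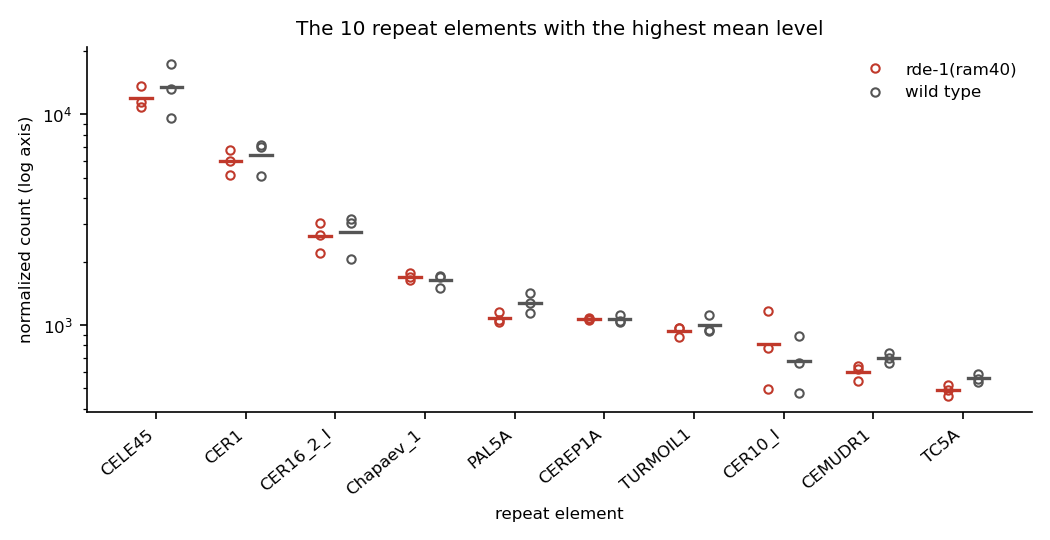
Normalized counts (y axis, log scale) of the 10 members with the highest mean, in rde-1(ram40) (red, left) and wild type (grey, right). Each point is 1 library and each bar the mean of 3; CELE45 spans 9566 to 17423 in wild type, and CER10_I spans 498 to 1170 in rde-1(ram40).

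A single member passed the test, and it was lower in the mutant. TURMOIL2, a DNA transposon of the Harbinger superfamily, had 108, 116 and 107 normalized counts in rde-1(ram40), against 212, 259 and 197 in wild type, or 101 to 135 reads in rde-1(ram40) against 172 to 236 in wild type. Each mutant library lay below each wild-type library. The log2 fold change was -0.998 (SE 0.14, limma with Benjamini-Hochberg adjustment over 11331 features, adjusted p = 0.0116, 3 libraries each). By the same test 0.362% of all features were called (0.0794% higher and 0.282% lower), and 1 of 90 members rests on too few calls to be read against that background. The call was lost when wild-type replicate 1 (adjusted p = 0.0610) or wild-type replicate 2 (adjusted p = 0.0651) was left out, with log2 fold changes of -1.03 and -0.88; over all alternatives the adjusted p ran from 0.00291 to 0.0651. TURMOIL1, the other Harbinger member, had 968, 881 and 964 in rde-1(ram40) and 944, 1109 and 937 in wild type, and its groups overlapped.

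The next members in order of p are given as values, chosen after those values were seen. MIRAGE1, an EnSpm-type DNA transposon, had 56.8, 50.7 and 44.0 normalized counts in rde-1(ram40), against 112, 92.3 and 87.9 in wild type (log2 fold change -0.94, SE 0.19, limma adjusted p = 0.0753). PALTA3, listed as a DNA transposon without a superfamily, had 87.8, 71.3 and 51.5 in rde-1(ram40), against 102, 136 and 149.8 in wild type (-0.89, SE 0.22, limma adjusted p = 0.223). Chapaev_2 had 266, 267 and 217 in rde-1(ram40), against 388, 371 and 306 in wild type (-0.50, SE 0.13, limma adjusted p = 0.279). In all 3 the mutant libraries lay below the wild-type libraries without overlap, and none passed the threshold. The lowest log2 fold change of all members was that of PALTA1 (-1.10, SE 0.39, limma adjusted p = 0.527), which had 5.35, 7.73 and 14.1 in rde-1(ram40), against 16.0, 25.3 and 17.4 in wild type. The highest was that of MARINCE1, a mariner element (0.58, SE 0.29, limma adjusted p = 0.671), with 41.8, 36.1 and 33.2 in rde-1(ram40), against 34.5, 25.3 and 16.43 in wild type. Both rest on few reads, and MARINCE1 overlapped between the groups.

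**Figure D2:**
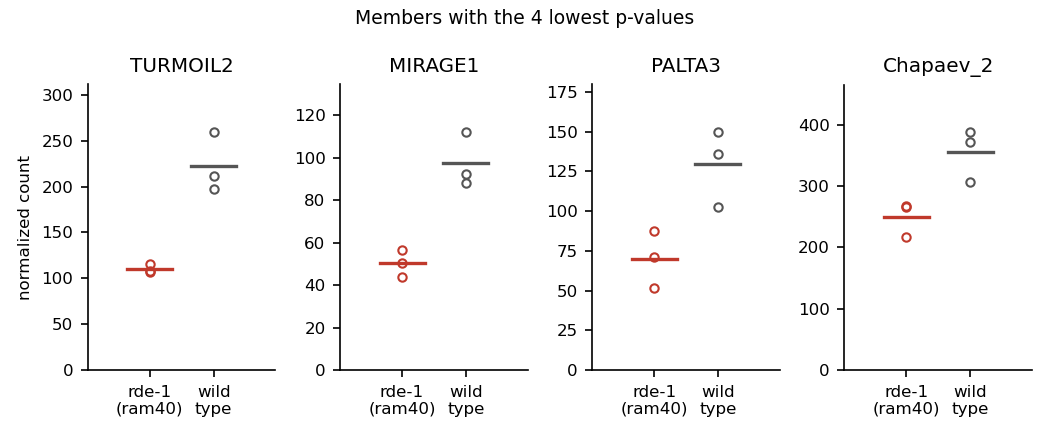
Normalized counts (y axes, from 0) of TURMOIL2, MIRAGE1, PALTA3 and Chapaev_2 in rde-1(ram40) (red, left) and wild type (grey, right). Each point is 1 library and each bar the mean of 3; the groups do not overlap in any of the 4, and TURMOIL2 passed the test.

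Most members lay slightly below wild type. Of the 90, 70 had a log2 fold change below 0 (77.8%), against 43.5% of all features tested, and the median was -0.20, against 0.02 over all features. The share was 77.1% of 35 members with a mean of 10 to 50, where all features had 59.4%, 75.0% of 36 members with 50 to 200, where all features had 50.7%, and 84.2% of 19 members above 200, where all features had 32.1%. In 21 members every rde-1(ram40) library was below every wild-type library, against 6.16% of all features, and in 0 members was it above, against 6.77%. At an unadjusted p under 0.05 there were 11 members, all with a fold change below 0, where 7.9% of all features had such a p in either direction. The members' median stayed between -0.15 and -0.23 when each library was left out in turn or the libraries were rescaled. These are counts over elements that share libraries and, in part, sequence. Gene rows and repeat rows were also not all scaled alike. In rde-1(ram40) replicate 2 the step of repeat rows was 0.859, while msp-63 stood at 0.927 and bli-1 at 0.864. In wild-type replicate 2 the step of repeat rows was 1.10, while msp-45 stood at 1.02. The part of this scaling in the contrast with all features was not tested.

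Marker genes and heat shock genes were set beside these levels. The summed level of 8 muscle genes was 7561 to 10904 normalized counts in rde-1(ram40) and 11583 to 14500 in wild type, with 0 of 8 called by limma. The heat shock list had 2034 to 2231 in rde-1(ram40) and 3014 to 3480 in wild type over 7 matched genes, of which 1 of 6 tested, F44E5.5 of the hsp-70 family, was called lower (log2 fold change -0.73, SE 0.13, adjusted p = 0.0317), though its near copy F44E5.4 could share its reads. In that list hsp-16.48 lay the other way without a call, at 197, 97.0 and 273 in rde-1(ram40), against 0, 126 and 185 in wild type. The intestine list had 185646 to 213564 in rde-1(ram40) and 205006 to 311986 in wild type (0 of 10 called), and the epidermis list 5700 to 9180 in rde-1(ram40) and 7406 to 10163 in wild type (0 of 5). The germline list had 16475 to 18846 in rde-1(ram40) and 14551 to 19179 in wild type, and the oocyte list 135582 to 160130 in rde-1(ram40) and 117046 to 154444 in wild type, with 0 of 10 and 0 of 13 called. Sperm genes were low, with 73.3 to 80.1 in rde-1(ram40) and 48.0 to 227 in wild type over 29 genes, 1 of them at 0 throughout and 0 high enough to be tested. The part of these lists in the repeat levels was not tested, and in whole animals fewer cells of a type and less RNA per cell cannot be told apart.

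**Figure D3:**
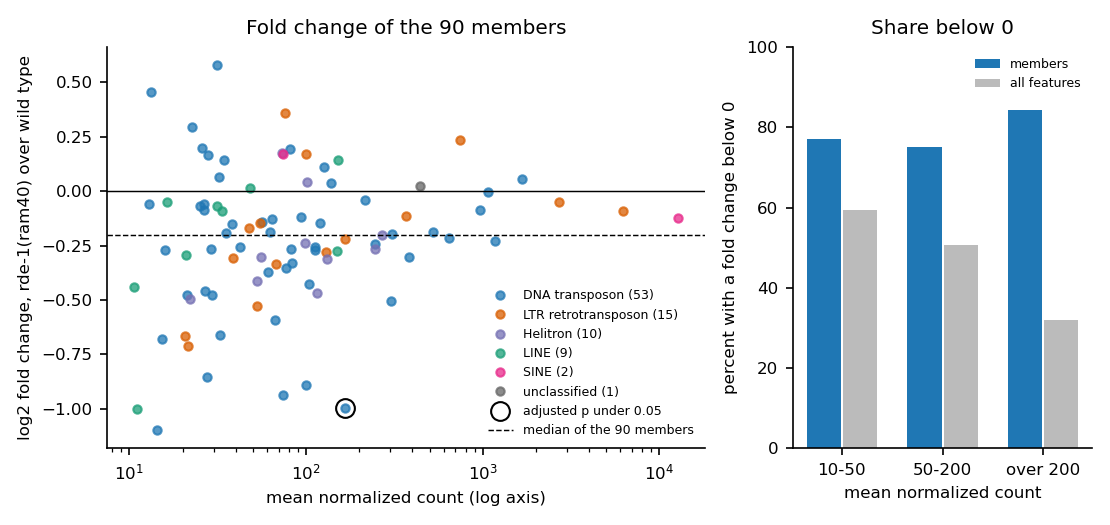
Left, log2 fold change of rde-1(ram40) over wild type (y axis) against mean normalized count (x axis, log scale) for the 90 members, coloured by class, with a dashed line at their median of -0.20 and a ring around TURMOIL2. Right, percent of members (blue) and of all features tested (grey) with a fold change below 0, in 3 bands of mean level; the members' share is 75.0% to 84.2% and that of all features 32.1% to 59.4%.

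DNA transposons were 53 of the 90 members. Summed over these 53 members, they had 9865, 9260 and 8885 normalized counts in rde-1(ram40), against 10122, 10870 and 10308 in wild type, without overlap. The means were 9336 ± 494 in rde-1(ram40) and 10433 ± 389 in wild type (SD, n = 3 each). Of the 53, 42 had a fold change below 0, against 43.5% of all features, and 10 an unadjusted p under 0.05, against 7.9%, with a median log2 fold change of -0.20. Among superfamilies, the 5 MuDR members summed to 847, 828 and 751 in rde-1(ram40), against 969, 976 and 943 in wild type. CEMUDR1, the largest of them, had 639, 618 and 544 in rde-1(ram40), against 695, 732 and 658 in wild type (log2 fold change -0.21, SE 0.10, limma adjusted p = 0.652). Both the sum and the element separated the groups, but the element did not pass the test.

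The Tc elements, the best-known transposons of the worm, were among the DNA transposons. TC1 had 98.5, 86.8 and 82.2 normalized counts in rde-1(ram40), against 92.5, 104 and 93.7 in wild type, and its variant TC1A 256, 211 and 168 in rde-1(ram40), against 264, 222 and 168 in wild type. Reads of these 2 rows could be split between them by the authors' counting, and both rows overlapped between the groups. Tc3 had 97.5, 96.2 and 72.2 in rde-1(ram40), against 125, 100.02 and 133 in wild type, below it in every library (log2 fold change -0.43, SE 0.18, limma adjusted p = 0.614). TC4 had 124, 92.8 and 90.5 in rde-1(ram40), against 125, 123 and 120 in wild type, with overlap. TC5 had 67.5, 61.9 and 54.8 in rde-1(ram40), against 61.6, 67.0 and 72.5 in wild type, and TC5A 517, 489 and 462 in rde-1(ram40), against 534, 583 and 556 in wild type. TC5A was lower in every mutant library (-0.19, SE 0.10, limma adjusted p = 0.701), while TC5 overlapped. TC6, listed without a class, had 520.5, 436 and 377 in rde-1(ram40), against 471, 434 and 400.1 in wild type. No Tc element passed the test.

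LTR retrotransposons, the Cer elements, showed no call by limma in 15 members, where 0.362% of all features were called. At an unadjusted p under 0.05 there were 0 of 15, against 7.9% of all features. The 15 members summed to 11163, 9963 and 10454 normalized counts in rde-1(ram40), against 11829, 11125 and 10182 in wild type, with overlap. Of the 15, 12 had a fold change below 0 (median -0.17), against 43.5% of all features. Their log2 fold changes ran from -0.71 for CER16_2_LTR, at a mean of 21.5, to 0.36 for CER3_1_LTR, at a mean of 75.997. CER3_1_LTR had 84.6, 73.0 and 97.9 in rde-1(ram40), against 60.4, 54.95 and 85.0 in wild type, while CER3_I had 71.8, 57.6 and 48.97 in rde-1(ram40), against 62.9, 92.3 and 70.5 in wild type. The 2 rows had fold changes of opposite sign, neither passed the test, and whether they differ from each other was not tested. CER7_I was the 1 of 15 LTR members whose libraries did not overlap, where 6.16% of all features were lower without overlap. It had 38.6, 36.9 and 28.2 in rde-1(ram40), against 45.6, 44.0 and 38.7 in wild type. Its highest rde-1(ram40) library (38.55) was only just below its lowest wild-type library (38.66), and it was not called (limma adjusted p = 0.778).

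Helitrons, the rolling-circle elements, summed to 1192, 1052 and 962 normalized counts over 10 members in rde-1(ram40), against 1233, 1283 and 1259 in wild type, without overlap. Of the 10, 8 had a fold change below 0 (median -0.28), against 43.5% of all features, 4 were lower without overlap, against 6.16%, and 0 were called by limma or had an unadjusted p under 0.05. HELITRON1 had 119, 121 and 110 in rde-1(ram40), against 126, 164 and 148 in wild type (log2 fold change -0.31, SE 0.15, limma adjusted p = 0.652). HELITRONY4 had 235, 221 and 207 in rde-1(ram40), against 238, 243 and 324 in wild type, and HELITRONY3 14.99, 19.8 and 19.9 in rde-1(ram40), against 30.8, 25.3 and 22.2 in wild type. In each of the 3 the mutant libraries were the lower ones, by less than the test could call. NDNAX3, listed as a Helitron, had 303, 247 and 205 in rde-1(ram40), against 282, 289 and 287 in wild type, with 1 mutant library above the wild-type range.

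LINEs, which copy through target-primed reverse transcription, had 9 members. Of these, 0 were called by limma, against 0.362% of all features, and 1 had an unadjusted p under 0.05, against 7.9%. The 9 members summed to 482, 477 and 407 normalized counts in rde-1(ram40), against 503, 511 and 459 in wild type, with overlap. RTE_1, the worm's RTE element, had 147, 151 and 108 in rde-1(ram40), against 180.0, 153 and 155 in wild type (log2 fold change -0.27, SE 0.16, limma adjusted p = 0.711). NeSL_1, a LINE known in worms for inserting into spliced-leader genes, had 179, 166 and 133 in rde-1(ram40), against 134, 186 and 117 in wild type. RTE_1 did not overlap between the groups and NeSL_1 did. LINE2H was the member with the unadjusted p under 0.05, at only 3 to 11 reads per rde-1(ram40) library and 10 to 17 per wild-type library. The other SINE beside CELE45, SINE1, had 75.0, 85.1 and 75.5 in rde-1(ram40), against 60.4, 80.2 and 69.6 in wild type, with overlap.

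**Figure D4:**
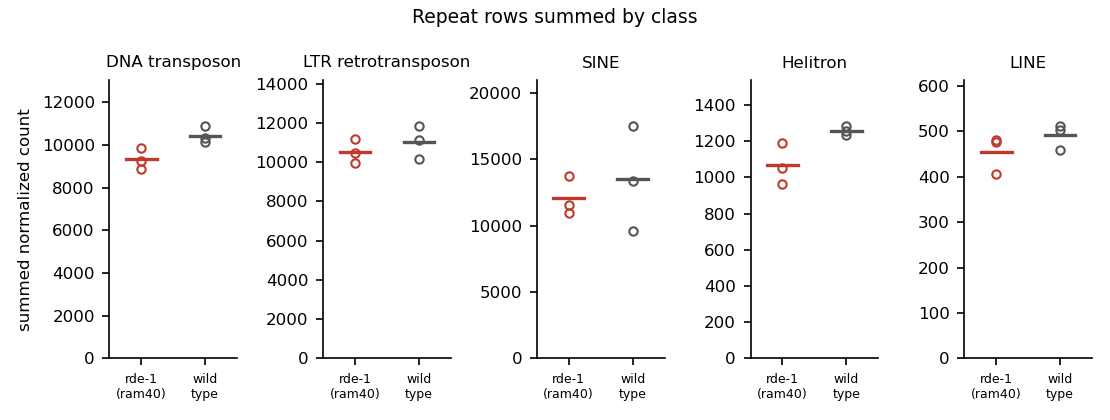
Summed normalized counts (y axes, from 0) of the members of each class in rde-1(ram40) (red, left) and wild type (grey, right). Each point is 1 library and each bar the mean of 3; DNA transposons and Helitrons do not overlap between the groups, and LTR retrotransposons, SINEs and LINEs do.

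Summed over all 90 members, repeat RNA was 34761, 32166 and 34800 normalized counts in rde-1(ram40), against 33784, 37564 and 40101 in wild type, a difference of means of -3241 with overlap. Without CELE45 it was 23297, 21274 and 21160 in rde-1(ram40), against 24218, 24303 and 22678 in wild type. In both sums the groups overlapped, and neither was tested, since the elements had been chosen with results known.

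Among genes known to act in RNAi and transposon silencing, rde-1 itself was the 1 that passed the test. The list held 67 symbols, of which 62 matched a gene and were tested. Beside rde-1 no gene passed the threshold or had an unadjusted p under 0.05, where 0.362% and 7.9% of all features did. The median log2 fold change was 0.04 over the list, against 0.02 over all features. The list was drawn up with earlier results of these data known.

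In the small RNA tables, element names stood in the 23H-RNA class. Of its 1193 rows, each a single sequence, 180 (15.1%) carried 1 of 15 element names, the same 180 in each of the 8 tables. Among the 15, 9 are members and hold 135 rows: PALTA3 with 56, CELE14B with 30, PAL5A with 18, CELE1 with 9, TIR54TA1 and PALTTAA1 with 7 each, PALTTAA3 with 4, and TC5 and TC5A with 2 each. The other 6 had too little RNA to be members and hold 45 rows: DNA-8-1 with 17, PAL8C with 13, PALTA4 with 9, PALNN1 with 4, and IR1_CE and NPALTA1 with 1 each. A single PALTA3 row was listed together with the genes talp-3, Y48A6C.4 and Y57G11C.32. The 15 elements are all DNA transposons, and no LTR, LINE, SINE or Helitron name was among them. The 23H-RNA list is the authors' own and may have been chosen on RDE-1 co-IPs of these data. All 180 rows were above 0 in both RDE-1 co-IPs without RNAi, against 29 and 35 rows in their inputs. In the RDE-1 co-IPs on nrfl-1 RNAi 122 to 144 rows were above 0. The enrichment in RDE-1 co-IPs, and its contrast between the 2 experiments, are therefore descriptions.

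The 180 sequences resembled the other 1013 in length and more often began with T and had a partner. They were 21 to 24 nt long, with 49.4% at 23 nt and 32.2% at 22 nt, against 42.7% and 35.2% of the other 23H-RNAs. The first base was T in 57.2% of element sequences, against 39.0% of the others, and G in 0.556% (1 sequence), against 7.21%. Of the 180, 84.4% had among the 180 a sequence that was their reverse complement over at least 15 nt, and 59.8% of the other 1013 had such a partner among the 1013. The partner could belong to another element or locus. Duplexes with 2-nt 3′ overhangs at both ends, the shape that Dicer leaves, could be formed by 64 of the 180 element sequences, against 315 of the other 1013. Among elements these were 24 of the 56 PALTA3 sequences, 10 of the 18 PAL5A sequences and 9 of the 30 CELE14B sequences. They were 0 for TC5, TC5A, IR1_CE and NPALTA1, which have only 1 or 2 sequences each. Only sequences of equal length were paired, and the 2 of TC5A differ in length, so nothing is read from these. Sequences of an element overlap each other and share a source, so these shares are descriptions. PALTA3 sequences averaged 56.4% G and C, and CELE14B sequences 40.1%.

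Without RNAi, 23H-RNAs of all 15 elements were higher in RDE-1 co-IPs than in inputs, and on nrfl-1 RNAi those of 11. Summed over the 180 rows, the level was 423 and 652 RPM (reads scaled to library size) in co-IPs without RNAi, against 4.04 and 4.62 RPM in inputs, a 124-fold ratio of means. The whole 23H-RNA class had a 159-fold ratio. All 15 elements were higher in both co-IPs than in both inputs, and so were 100% of the 179 names in the class, so the count says nothing particular to the elements; 0% of names were lower. On nrfl-1 RNAi the 180 rows summed to 431, 557 and 419 RPM in co-IPs, against 5.72, 6.51 and 6.71 RPM in inputs. The first 2 of these 3 input columns match the group only by their table, since their names also fit the inputs without RNAi. There 11 of 15 elements were higher without overlap, against 68.5% of 165 names, and 1, TC5, was lower, against 2.42%. Here and below, the names counted leave out those at 0 in every library, while the 15 elements keep them, here NPALTA1.

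The elements differed in how much they contributed. PAL8C, of the hAT superfamily and with fewer than 2 normalized counts on average in each of its 5 RNA rows, gave most: 160.4 and 251 RPM in co-IPs without RNAi, against 0.49 and 0.51 RPM in inputs. On nrfl-1 RNAi it gave 195, 289 and 201 RPM in co-IPs, against 0.32, 0.38 and 0.73 RPM in inputs. PALTA3, whose own RNA is given above, gave 99.5 and 149 RPM in co-IPs without RNAi, against 0.86 and 0.85 RPM in inputs, and on nrfl-1 RNAi 161, 155 and 103 RPM in co-IPs, against 1.15, 1.51 and 1.95 RPM in inputs. TC5A gave 51.6 and 82.5 RPM in co-IPs without RNAi, against 1.21 and 1.32 RPM in inputs, a 53-fold ratio where PALTA3 had 145-fold and CELE14B 69.8-fold. On nrfl-1 RNAi the 3 TC5A co-IPs were far apart, at 7.49, 29.7 and 33.6 RPM, against 0.16, 0.10 and 0 RPM in inputs. CELE14B gave 30.2 and 33.98 RPM in co-IPs without RNAi, against 0.54 and 0.38 RPM in inputs.

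**Figure D5:**
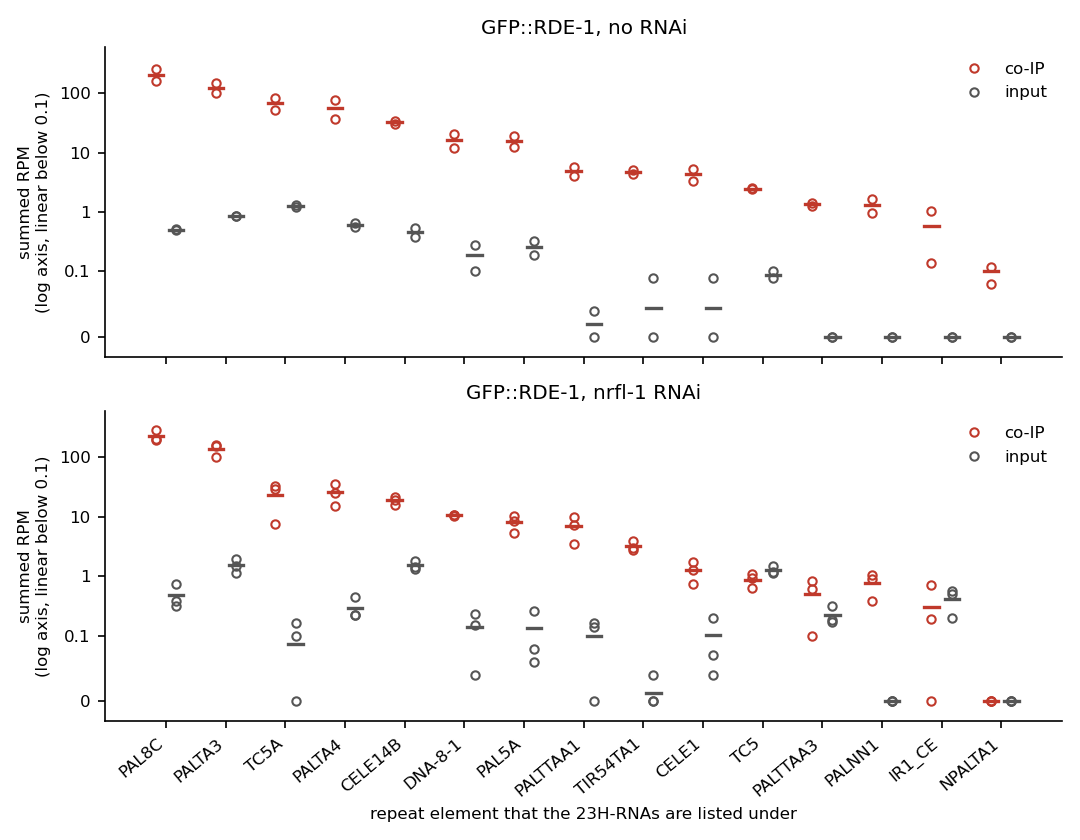
Summed RPM of 23H-RNAs by element (y axes, log scale, linear below 0.1) in GFP::RDE-1 co-IPs (red, left) and inputs (grey, right), without RNAi above and on nrfl-1 RNAi below. Each point is 1 library and each bar a mean; PAL8C, PALTA3, TC5A, PALTA4, CELE14B and DNA-8-1 exceed 7 RPM in every co-IP, and TC5 is higher in co-IPs without RNAi but lower in those on nrfl-1 RNAi.

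Tested row by row, few sequences were abundant enough. Without RNAi 37 of the 180 rows reached a mean of 1 RPM, and all 37 were called higher in co-IPs by limma, with log2 fold changes on the log2(RPM + 1) scale of 1.38 to 6.52, where 6.94% of all features were called higher. On nrfl-1 RNAi 31 reached it and all were called higher (1.54 to 6.49), where the background was 15.1%. A row could reach the mean through the co-IPs alone, and 15 of the 37 and 7 of the 31 were at 0 in every input, so these counts are no support of their own. Without co-IP replicate 2 the count without RNAi was 24. Of the 37 and 31 sequences 27 were shared, 73.0% and 87.1% of them. The highest was a 24-nt PAL8C sequence that begins with T. It had 89.8 and 164 RPM in co-IPs without RNAi, against 0.34 and 0.32 RPM in inputs (log2 fold change 6.52, SE 0.29, limma adjusted p = 4.98e-05). On nrfl-1 RNAi it had 58.7, 144 and 119 RPM in co-IPs, against 0.08, 0.09 and 0.22 RPM in inputs (6.49, SE 0.37, limma adjusted p = 3.10e-07). The most abundant tested sequences of PAL8C, PALTA3 and TC5A were the same in both experiments.

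In lysates these RNAs were counted in few reads. In animals carrying ne219 they were still detected: the 180 rows summed to 3.88, 3.22 and 4.69 RPM in rde-1(ne219) adults, against 3.19, 2.98 and 2.65 RPM in wild type. The whole class had 517, 461 and 565 RPM in rde-1(ne219), against 364, 387 and 319 RPM in wild type, and like the elements it did not overlap. Of the 15 elements, 2 were higher without overlap (CELE14B and TC5A), where 9.17% of 109 names were, and 0 were lower, where 5.5% were. CELE14B had 0.60, 0.50 and 0.66 RPM in rde-1(ne219), against 0.26, 0.25 and 0.22 RPM in wild type. A single row, of TC5A, was abundant enough to test and was not called (log2 fold change 0.31, SE 0.16, limma adjusted p = 0.117), where 52.4% of all features were called.

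In embryos the summed level was above that of adults. The 180 rows summed to 7.27 and 7.07 RPM in mixed-stage embryos, against 3.19, 2.98 and 2.65 RPM in adults, and the whole class to 811 and 797 RPM in embryos, against 364, 387 and 319 RPM in adults. CELE14B had 2.13 and 1.58 RPM in embryos, against 0.26, 0.25 and 0.22 RPM in adults, and PALTA3 2.64 and 2.36 RPM in embryos, against 0.83, 0.53 and 0.87 RPM in adults. TC5A did not follow, with 0.49 and 0.89 RPM in embryos, against 1.27, 1.30 and 0.64 RPM in adults. Without overlap 7 of 15 elements were higher and 1, PAL8C, was lower at 0 RPM in both embryo libraries, where 52.1% of 119 names were higher and 3.36% lower. No row reached the mean for a test. The embryo libraries carry no pyrophosphohydrolase label, while the adult values equal those of libraries that do, so stage and treatment cannot be told apart.

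On dcr-1 RNAi, which targets Dicer, the 180 rows summed to 4.74 and 4.77 RPM, against 5.43 and 6.64 RPM on L4440. The whole class had 209 and 216 RPM on dcr-1 RNAi, against 367 and 385 RPM on L4440. PALTA3 had 1.00 and 0.54 RPM on dcr-1 RNAi, against 1.35 and 1.93 RPM on L4440, and 5 of 15 elements were lower without overlap, where 20.4% of 93 names were, and 2 were higher, where 6.45% were. TC5 was 1 of those, with 0.70 and 0.56 RPM on dcr-1 RNAi, against 0.28 and 0.29 RPM on L4440. The 1 row tested, of TC5A, had a log2 fold change of -0.18 (SE 0.24, limma adjusted p = 0.595), where 21.2% of all features were called. The columns of this table also name RDE-4::FLAG, which the labels do not, so the strain is uncertain.

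In co-IPs of ALG-1 and ALG-2, the microRNA Argonautes, the sums over the 180 rows were between 1.71 and 11.7 RPM. ALG-1 co-IPs had 3.34 and 4.17 RPM on L4440, against 4.63 and 5.46 RPM in inputs, and ALG-2 co-IPs 1.86 and 1.71 RPM on L4440, against 4.15 and 2.68 RPM in inputs. On rde-1 RNAi ALG-1 co-IPs had 6.86 and 9.89 RPM, against 4.67 and 3.49 RPM in inputs, and ALG-2 co-IPs 2.44 and 2.48 RPM, against 2.49 and 4.02 RPM in inputs. On nrfl-1 RNAi ALG-1 co-IPs had 11.7, 9.36 and 9.31 RPM, against 7.96, 6.62 and 7.43 RPM in inputs, above them without overlap. The whole class had co-IP over input ratios of 0.368 on L4440, 1.34 on rde-1 RNAi and 1.12 on nrfl-1 RNAi for ALG-1, and of 0.210 on L4440 and 0.636 on rde-1 RNAi for ALG-2. In ALG-1 co-IPs, PALTA3 made the largest part: 3.29 and 4.74 RPM on rde-1 RNAi, against 1.57 and 1.89 RPM in the L4440 co-IPs of the same table. On nrfl-1 RNAi PALTA3 had 8.68, 6.02 and 5.10 RPM in ALG-1 co-IPs, against 2.24, 2.20 and 2.51 RPM in inputs. PAL8C, the largest in RDE-1 co-IPs, had 0.39, 0.49 and 0.37 RPM in the same ALG-1 co-IPs, against 0.97, 0.88 and 0.65 RPM in inputs. By element and without overlap, ALG-1 co-IPs on L4440 had 3 of 15 higher and 6 lower than input, where 5.26% and 36.8% of all listed names were. On rde-1 RNAi the ALG-1 co-IPs had 6 higher and 1 lower, where 23.1% and 17.3% were, and those on nrfl-1 RNAi 2 higher and 2 lower, where 14.4% and 16.9% were. ALG-2 co-IPs had 2 higher and 5 lower on L4440, where 6.59% and 44% were, and 1 higher and 6 lower on rde-1 RNAi, where 7.23% and 39.8% were. In the fits of L4440 and nrfl-1 libraries no row reached a mean of 1 RPM, so none was tested. An HA tag, absent from the labels, stands in the column names for ALG-1 on nrfl-1 RNAi.

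Whether members with 23H-RNAs differ in RNA level from the other members was not tested. Of the 9, 8 had a log2 fold change below 0 in rde-1(ram40) with a median of -0.23, and of the other 81 members 62 did, with a median of -0.19. PAL5A had 1154, 1060.2 and 1034 normalized counts in rde-1(ram40), against 1138, 1268 and 1417 in wild type (log2 fold change -0.23, SE 0.10, limma adjusted p = 0.632). CELE1 had 379.1, 332 and 314 in rde-1(ram40), against 379.7, 447 and 436 in wild type, which did not overlap by a margin of under 1 normalized count. PALTTAA1, the 1 above 0, had 148, 137 and 134 in rde-1(ram40) and 136, 134 and 138 in wild type.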

How the data were processed

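RNA levels were deposited as signal values: normalized counts. The authors trimmed with fastp, aligned with STAR, quantified with RSEM and scaled with DESeq2, per the submitters' processing notes. Of gene values above 0 and under 50, 1.88% to 56.0% per library were whole multiples of the step of repeat rows. Some gene rows had another step, so the scaling differed between rows. The values are normalized, so no count test was run. How RSEM split reads between related elements (TC5 and TC5A, internal parts and LTRs, PAL8C copies) and whether it used strand are not given in the sources used here, so such rows are uncertain. Small RNA tables were deposited as RPM, which the authors made with tinyRNA and Python scripts. The RPM denominator and genome builds are not given in the sources used here. The commonest low value of piRNA rows, taken as 1 read, was 0.03 to 0.09 RPM, so 1 RPM was 11.1 to 33.3 reads.

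Fits used limma 3.58.1 (R 4.3.3, eBayes with trend) on log2 of the deposited value + 1. Features averaging below 10 normalized counts or 1 RPM were left out, with two-sided p-values adjusted by Benjamini-Hochberg over all features tested and 0.05 as threshold. Fold changes on this scale understate low features. Sums by element were made over all rows and not tested. The fit was tested on simulated data. Elements named are those past the threshold, the 10 highest, and the Tc, Cer, LINE, RTE and Helitron families. MIRAGE1, PALTA3, Chapaev_2, PALTA1, MARINCE1, SINE1 and the elements with 23H-RNAs fall outside that rule and were chosen after their values were seen; the part of the rule on 22G-RNA levels named none. Members and lists were chosen with earlier results of these data known. Alternatives were another pseudocount, other filters and scalings, leaving out each library and the replicate block. All 53 columns were used, 3 of them matched to a group but not to a sample. Element sequences are not shown, since no genome or chromosome for them was used here.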

Additional observations from a re-analysis of the deposited data

Results flagged for a closer look

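23H-RNAs listed under TC5 went opposite ways in the 2 RDE-1 experiments, which is what drew attention to them, and the difference was not tested. Without RNAi the co-IPs had 2.46 and 2.48 RPM (mean 2.47), against 0.10 and 0.09 RPM in inputs. On nrfl-1 RNAi the co-IPs had 1.07, 0.92 and 0.62 RPM (mean 0.87), against 1.13, 1.49 and 1.18 RPM in inputs. The inputs at 1.13 and 1.49 RPM were matched to the group by their table only, since their column names also fit the inputs without RNAi; the input at 1.18 RPM was matched to its sample. The libraries come from different tables, normalized separately. Those without RNAi are labelled as treated with pyrophosphohydrolase and those on nrfl-1 RNAi are not, and the part of that in the difference was not tested.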

How the results depend on the processing

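Members called in rde-1(ram40) against wild type numbered 0 to 1 when each library was left out and 3 with the replicate block, which added MIRAGE1 (limma adjusted p = 0.0315, and 0.0571 to 0.416 otherwise) and Chapaev_2 (0.0423, and 0.0967 to 0.997 otherwise); all calls were 89 in place of 41. Whether the replicate numbers pair these samples is not known. Deviations of same-numbered libraries correlated at 0.22, -0.16 and 0.20, of mixed sign, which does not settle it. With the block the other counts of element rows called were the same, and with the ALG-2 numbers crossed (correlation -0.14) they stayed at 0. No paired analysis was possible because, for dcr-1 RNAi and for RDE-1 on nrfl-1 RNAi, 3 columns were matched to a group and not to a numbered sample, which leaves fewer than 2 pairs. The difference in summed repeat RNA ran from -4923 to -1765 when each library was left out, and was -1823 without CELE45, -3281 over all repeat rows (both chosen after seeing the data) and -3646 rescaled. Fold changes near 0 changed sign when a library was left out: CELE45 ran from -0.35 to 0.0845, CER1 from -0.25 to 0.0105, CER16_2_I from -0.25 to 0.079, Chapaev_1 from -0.0034 to 0.0888, CEREP1A from -0.0226 to 0.0279, CER10_I from -0.0687 to 0.55 and TC1A from -0.21 to 0.12. Counts of 23H-RNA rows called moved with the number of rows tested. For RDE-1 co-IPs without RNAi they were 133 with no filter, 9 at a mean of 5 RPM, 63 rescaled to 22G-RNAs and 24 to 43 leaving out a library; on nrfl-1 RNAi 90, 11, 64 and 24 to 34. With no filter they were 8 for embryos, and with no filter and rescaled 9 and 13 for ALG-1 on nrfl-1 RNAi (0 to 1 leaving out a library), 7 and 5 for ALG-1 on L4440 and 5 and 3 for ALG-2. The cause was not tested beyond the number of rows. Depth limits the lysates, where the 180 rows together held as few as 31.1 reads.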
